A study of Mus musculus with 4 samples.

Results

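The genes described here are 10 members of the fibroblast growth factor (FGF) and extracellular signal-regulated kinase (ERK) pathway in mouse embryonic stem cells (ESCs), taken from a count table of 26301 genes by their symbols. They are the ligand Fgf4, the receptors Fgfr1 and Fgfr2, the phosphatases Dusp4 and Dusp6, the inhibitors Spry2, Spry4 and Spred1, and the ETS transcription factors Etv4 and Etv5. Their messages were compared between WT ESCs and ESCs lacking the transcriptional repressor REST. In the REST-/- libraries the level of the ligand was 0.506 of that in WT, while the point estimates for Dusp6, Spred1, Etv4 and Spry2 lay above WT. Those for Fgfr1, Dusp4 and Etv5 lay below WT, and 5 of the 10 estimates were positive. None of the 10 genes passed edgeR's quasi-likelihood test across all genes at an adjusted p under 0.05, fitted with genotype as the only term, while Fgf4 passed in DESeq2 and in edgeR's exact test with tag-wise dispersion.

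FGF4 is secreted by ESCs and binds the receptor tyrosine kinases FGFR1 and FGFR2 with heparan sulphate as co-factor. The receptors signal through adaptors, RAS, RAF and MEK to ERK, and ERK activity is known for moving ESCs away from self-renewal and towards lineage commitment. The pathway restrains itself: ERK activity induces genes for phosphatases that inactivate ERK and for Sprouty and Spred proteins that act upstream of it, and messages of such genes are often used as readouts of the pathway. Only messages were measured here, and neither phosphorylated ERK nor protein was.

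The study asked what REST, a repressor that binds the RE1 element of neuronal genes, does in pluripotent cells. RNA-seq libraries were made from total RNA of the ESC lines N6 (WT) and N8 (REST-/-), with 2 biological replicates each. Both lines grew in medium with serum and leukemia inhibitory factor on irradiated embryonic fibroblasts, and were then passaged on gelatin to remove the fibroblasts. Each genotype is 1 line, so that genotype and line cannot be told apart.

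Libraries held between 22293966 and 30953863 counts. Rest itself kept 4244 and 3890 counts in the REST-/- libraries against 7908 and 6233 in WT. That count is summed over the gene, so it does not check the deleted part, but all 6 REST target genes used as a check were higher in both REST-/- libraries, with a summed level of 788 and 819 CPM (counts scaled to a common library size) against 57.9 and 81.7 in WT. The ESC markers Pou5f1 (687 CPM in WT and 726 CPM in REST-/-) and Sox2 (447 and 417 CPM) were abundant in both genotypes. Feeder fibroblast markers summed to 148 CPM in REST-/- replicate 1 against 46.0 to 49.5 CPM in the other libraries, with 10 of the 12 tested above WT on average and Lum at 0 in every library. Estimates without single libraries are therefore given beside the members.

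Sequences at Fgf4 and Fgfr1 are shown because RE1-like letters lay near these members, and the Spry4 match is given without its sequence. The RE1 element was searched as CAGNACC and, after 2 bases of any kind, GGACAG, whose 12 informative letters were matched on both strands of the mm9 genome, the build named in the submitters' processing notes. None of the 10 genes had a full match within 20 kb of an annotated start, against 4.4% of the 14590 tested genes with a position. The nearest full match to any member was 167932 bp from a Dusp6 start, and the nearest to Fgf4 was 566920 bp away. Matches to 11 of the 12 letters lay within 20 kb of 3 members, Fgf4, Fgfr1 and Spry4, while 44.1% of the tested genes had one at that distance. The Fgf4 match was 159 bp after the start, in a coding exon on the minus strand, and 6.17% of tested genes had an 11-letter match within 1 kb. In the following sites capitals mark informative letters that match, and each differs from the element, counted from 1 at its 5′ end, by the change given in its name.
Fgf4 chr7:152047443-152047457 minus strand, A12G: CAGgACCctGGgCAG
Fgfr1 chr8:26615143-26615157 plus strand, A5G, 8976 bp before the nearest start: CAGggCCtgGGACAG
Fgfr1 chr8:26639341-26639355 plus strand, C1G, intronic, 3405 bp before the nearest start: gAGcACCgaGGACAG

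Fgf4 also carries a paired SOX and POU element, the binding letters for SOX2 and OCT4 (Pou5f1) in its well-studied enhancer, and this is shown as the known route by which ESCs express the ligand. A search of the gene and its flanks, both strands, found it in exon 3 of 3, after the stop codon and so in the 3′ UTR, 3008 bp from the start and 832 bp before the gene end. Capitals mark the searched letters, and the lower-case bases between them were free.
Fgf4 chr7:152050299-152050316 plus strand, mm9: CTTTGTTtggATGCTAAT
The messages of both factors differed little between genotypes, with log2 fold changes (REST-/- over WT) of 0.08 (SE 0.12) for Pou5f1 and -0.10 (SE 0.13) for Sox2, and their libraries overlapped. The part of either factor in the Fgf4 value was not tested.

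The regions before the start of Fgf4 and Dusp6 are printed because these genes had the lowest and the highest estimate of the 10. They are RefSeq sequences on GRCm38.p6, a later build than mm9, and hold the 250 bases before each start. Capitals mark the GC box (GGGCGG, in 35.7% of 32851 RefSeq promoter windows) and the CCAAT box (CCAAT, in 37.4%), on either strand.
Fgf4 chr7:144861136-144861385 plus strand: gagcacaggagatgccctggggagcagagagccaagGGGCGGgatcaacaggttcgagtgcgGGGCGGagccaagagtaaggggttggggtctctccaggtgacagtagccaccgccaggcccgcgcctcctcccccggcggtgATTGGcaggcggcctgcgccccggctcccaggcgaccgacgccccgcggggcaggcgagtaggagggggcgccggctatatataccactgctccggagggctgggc
Dusp6 chr10:99262981-99263230 plus strand: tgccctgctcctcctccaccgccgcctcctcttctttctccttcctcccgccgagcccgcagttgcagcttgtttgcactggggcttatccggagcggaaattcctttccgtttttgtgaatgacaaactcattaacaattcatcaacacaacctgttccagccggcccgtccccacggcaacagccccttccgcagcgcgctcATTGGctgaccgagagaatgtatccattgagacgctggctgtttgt
Promoter windows, which run 50 bases past the start, were matched for 6 of the 10 genes (Fgf4, Fgfr2, Dusp6, Spry2, Spred1 and Etv5), Etv5 with 2 windows, and not for Fgfr1, Dusp4, Spry4 and Etv4. The Fgf4 window held 2 GC boxes and 1 CCAAT box with 69.7% GC, and the Dusp6 window 1 CCAAT box with 57.3% GC, beside a median of 52.7% GC over all windows. None of the 7 windows held the full RE1 (0.0578% of all windows), its right part GGACAG (22.2%), the ETS letters CCGGAAG (8.86%) or the cyclic AMP element TGACGTCA (1.79%).

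**Figure D1:**
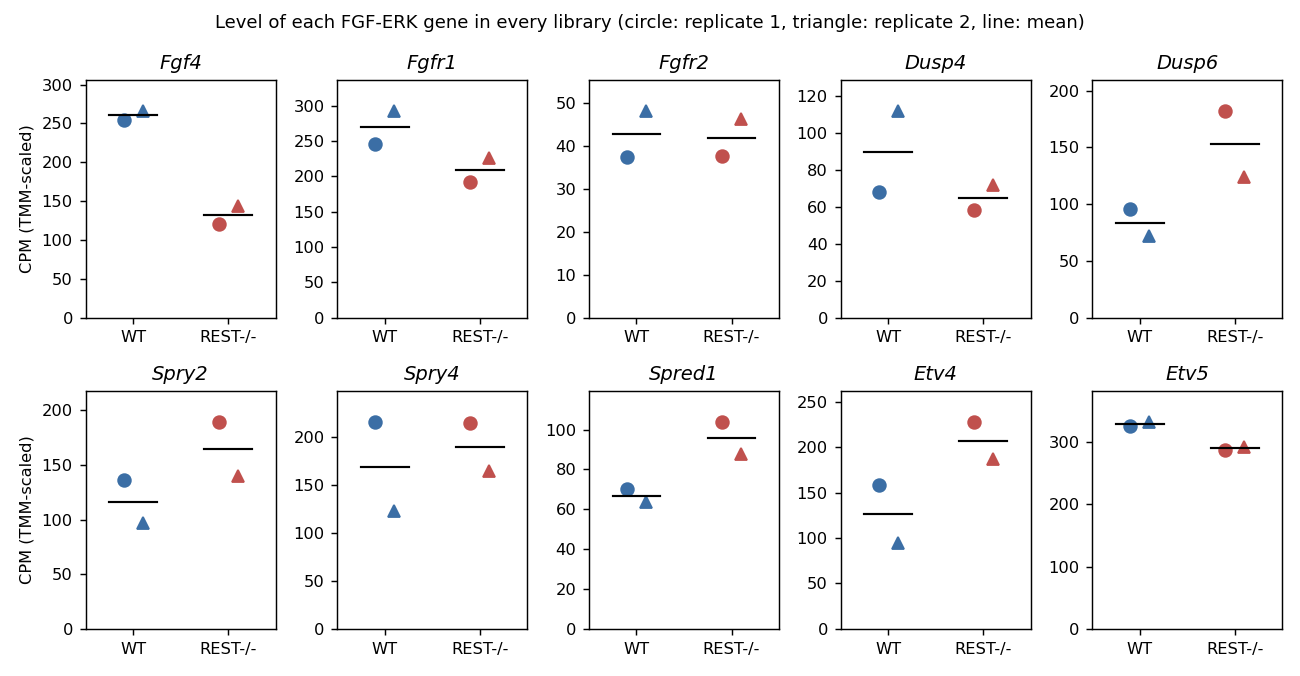
CPM (vertical axes, starting at 0) of the 10 genes in the 4 libraries, with a circle for replicate 1, a triangle for replicate 2 and a line for the mean of each genotype. The REST-/- points of Fgf4 lie at 120 and 144 CPM, below both WT points, and those of Dusp6 lie at 182 and 124 CPM, above both WT points.

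All 10 genes were well expressed, with 972 to 10091 counts in a library and a median WT level of 121 CPM against 20.7 CPM over the 15444 genes tested. Counting error was at most 3.21% of a value (Poisson), so that the spread between replicates, with a common biological coefficient of variation of 27.5%, set the precision. By edgeR's quasi-likelihood test 0 of the 10 genes were called, where 9 of all genes (0.0583%) were. At an unadjusted p under 0.05 there were 3 members (Fgf4, Dusp6 and Spred1), against 6.71% of all genes. DESeq2 called 1 member, Fgf4, beside 1.54% of all genes, and edgeR's exact test with tag-wise dispersion called 1, again Fgf4, beside 1.51%. The exact test with common dispersion called 0 of the 10, beside 2.22%.

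By their libraries, 3 genes (Fgf4, Fgfr1 and Etv5) lay below both WT libraries in both REST-/- libraries, 4 (Dusp6, Spry2, Spred1 and Etv4) lay above both, and Fgfr2, Dusp4 and Spry4 overlapped. Over all tested genes 15.4% lay below both WT libraries and 16.5% above both. The estimates were positive for 5 of the 10 members and for 49.2% of all genes. The members' median log2 fold change was 0.07, and the median of its size without sign was 0.48, against 0.18 over all tested genes, whose own median change was near 0.

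**Figure D2:**
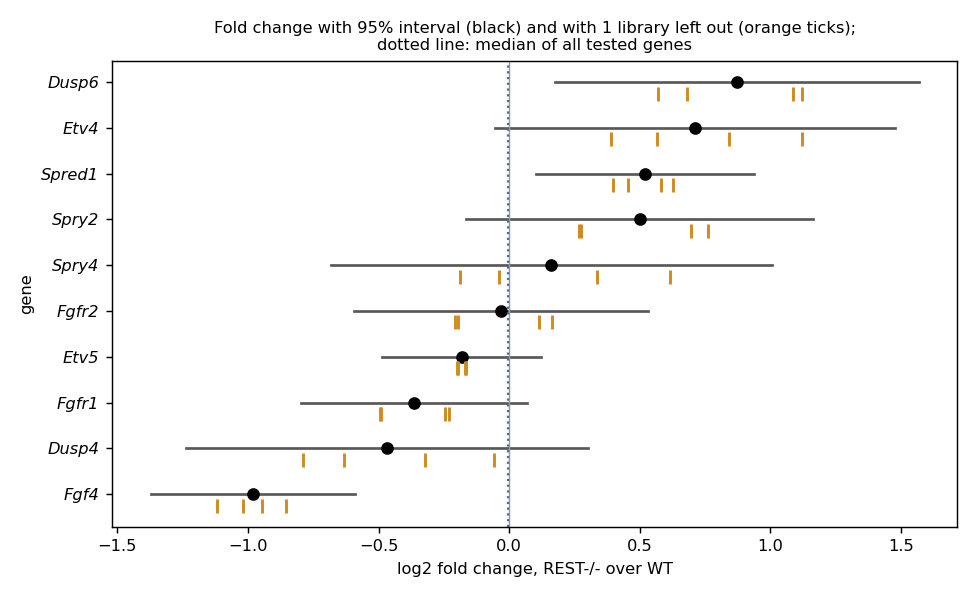
Log2 fold change, REST-/- over WT, of each gene with its 95% interval from edgeR's quasi-likelihood fit (horizontal axis, log2; black), ordered by the estimate; orange ticks give the estimate with 1 library left out, and the dotted line is the median of all tested genes. The intervals of Fgf4, Dusp6 and Spred1 do not cross 0, and the other 7 do.

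Fgf4, the ligand (gene ID 14175, chr7:152047291-152051148, plus strand, mm9), was at 255 and 266 CPM in the WT libraries and at 120 and 144 CPM in the REST-/- libraries. Both REST-/- values were lower than either WT value, by more than the replicates of a genotype differed. The means were 260.4 ± 8.26 CPM in WT and 132 ± 16.5 CPM in REST-/- (SD, n = 2). The log2 fold change was -0.98 (SE 0.15, 95% interval -1.37 to -0.59), with an adjusted p of 0.215 in edgeR's quasi-likelihood test. The adjusted p was 0.00761 in DESeq2, 0.0199 in the exact test with tag-wise dispersion and 0.338 in that with common dispersion, so that the call depended on the test and its dispersion. Without REST-/- replicate 1 the estimate was -0.86.

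Among the 751 tested genes with a WT mean at least that of Fgf4, 3 had an estimate as low or lower, Fgf4 itself included. The other two, named after their values were seen, were Zfp42 (-1.36), a marker of the naive pluripotent state, and Impact (-1.13), a translational regulator. The naive markers Klf2 (-0.84) and Nanog (-0.46) also had negative estimates, as did 8 of the 12 tested genes of the naive list. The list summed to 4075 and 3891 CPM in WT against 3194 and 3500 CPM in REST-/-. It includes Pou5f1 (0.08) and Sox2 (-0.10), used above as general ESC markers. None of the 12 was at 0, and none was called by edgeR's quasi-likelihood test, while 5 had an unadjusted p under 0.05 (6.71% of all genes) and DESeq2 called 2, Klf2 and Zfp42 (1.54% of all genes). One of the 5, Klf5, had an estimate in the other direction (0.67), with both REST-/- libraries above both WT libraries. The part of pluripotent state in the Fgf4 difference was not tested. In these bulk samples fewer cells of a type and less RNA per cell cannot be told apart.

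Neither receptor passed the test. Fgfr1 (gene ID 14182, chr8:26624126-26686186, plus strand), the main FGF receptor of ESCs, was at 246 and 293 CPM in WT and 192 and 227 CPM in REST-/-. Both REST-/- values lay below both WT values, but the gap between the nearest of them was smaller than the spread within either genotype. Its log2 fold change was -0.36 (SE 0.16, interval -0.80 to 0.07, adjusted p = 0.854 by edgeR's quasi-likelihood test). Leaving out WT replicate 2 gave -0.23, and leaving out REST-/- replicate 1 gave -0.25. Over the 786 tested genes of chromosome 8 the median estimate was -0.13, and the part of this shift in the Fgfr1 and Dusp4 values was not tested. Its exons overlap Gm16159, a non-coding gene on the opposite strand, and the strand setting of the counting is not given in the sources used here.

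Fgfr2 (gene ID 14183, chr7, minus strand), the receptor that marks the primitive endoderm lineage, was at 37.5 and 48.3 CPM in WT and 37.6 and 46.3 CPM in REST-/-. These ranges coincide. The estimate was -0.03 (SE 0.21, interval -0.59 to 0.53), and its sign turned when WT replicate 2 (0.16) or REST-/- replicate 1 (0.12) was left out. The ratio of Fgfr1 to Fgfr2 counts was 6.56 and 6.07 in WT and 5.11 and 4.89 in REST-/-, with no overlap, counts not being scaled by gene length. Exons of the Fgfr2 model overlap those of Ctbp2 in GENCODE M1, and reads of these genes may not be separable there.

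The phosphatases Dusp4 and Dusp6 had estimates of opposite sign. Dusp6 (gene ID 67603, chr10:98725865-98730122, plus strand), which dephosphorylates ERK in the cytoplasm, was at 95.5 and 71.8 CPM in WT and at 182 and 124 CPM in REST-/-. Both REST-/- libraries were above both WT libraries, although they differed from each other by more than the WT libraries did. The means were 83.6 ± 16.8 and 153 ± 41.4 CPM (SD, n = 2), a ratio of 1.83. The log2 fold change was 0.87 (SE 0.26, interval 0.18 to 1.57), and it did not pass edgeR's quasi-likelihood test (adjusted p = 0.654). It was 0.57 without REST-/- replicate 1, the library with the high fibroblast markers, and their part in the Dusp6 value was not tested.

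Dusp4 (gene ID 319520, chr8:35870351-35882948, plus strand), a nuclear ERK phosphatase, was at 67.8 and 112 CPM in WT and 58.3 and 71.7 CPM in REST-/-. The genotypes overlapped, and WT replicate 2 stood above the other 3 libraries. Its log2 fold change of -0.47 (SE 0.29, interval -1.24 to 0.30, adjusted p = 1.0 by edgeR's quasi-likelihood test) was -0.06 without WT replicate 2, -0.32 without REST-/- replicate 1 and -0.79 without WT replicate 1. The Dusp6 to Dusp4 count ratio was 1.41 and 0.641 in WT and 3.13 and 1.73 in REST-/-, with no overlap. The smallest p that an exact two-sided permutation test could give with 2 libraries a group is 0.333, so no such ratio was tested.

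**Figure D3:**
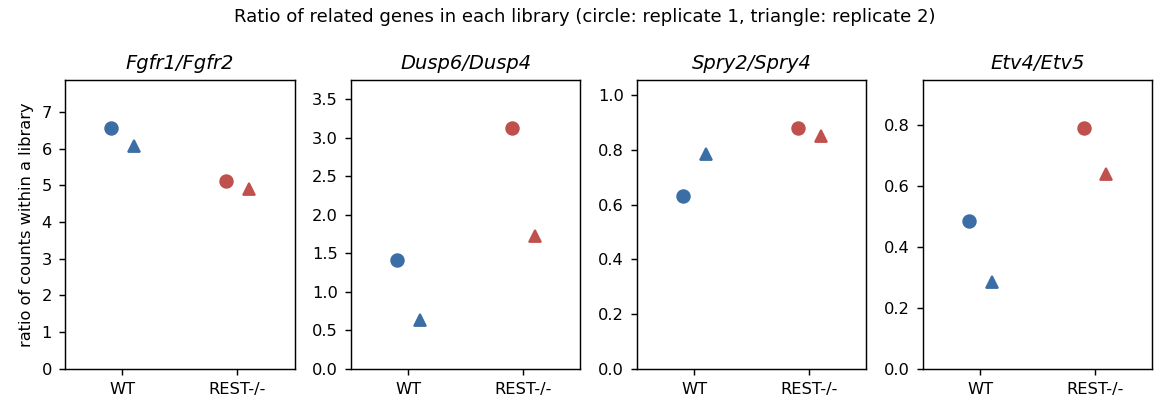
Count ratios of related members in each library (vertical axes, linear and starting at 0), with a circle for replicate 1 and a triangle for replicate 2 of each genotype. The Dusp6 to Dusp4 ratio and the Etv4 to Etv5 ratio are higher in both REST-/- libraries than in either WT library, and the Fgfr1 to Fgfr2 ratio is lower.

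The inhibitors Spry2, Spry4 and Spred1 all had positive estimates. Spry2 (gene ID 24064, chr14:106291166-106296036, minus strand), a Sprouty protein that blocks receptor signals to RAS and ERK, was at 136 and 96.6 CPM in WT and 189 and 139.8 CPM in REST-/-. The lowest REST-/- library was only just above the highest WT library. The log2 fold change was 0.50 (SE 0.25, interval -0.16 to 1.16, adjusted p = 0.911 by edgeR's quasi-likelihood test). It was 0.27 without WT replicate 2 and also 0.27 without REST-/- replicate 1, and 0.76 without WT replicate 1.

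Spry4 (gene ID 24066, chr18:38745922-38760922, minus strand), a second Sprouty gene, was at 216 and 123 CPM in WT and 215 and 164 CPM in REST-/-. The REST-/- libraries lay within the WT range. Its estimate of 0.16 (SE 0.32, interval -0.68 to 1.01) became -0.19 without WT replicate 2 and -0.04 without REST-/- replicate 1, so that no direction could be given. Spry2 counts were 0.631 and 0.785 of Spry4 counts in WT and 0.881 and 0.85 of them in REST-/-.

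Spred1 (gene ID 114715, chr2:116947110-117008015, plus strand), which brings neurofibromin to the membrane to switch off RAS, was at 70.0 and 63.8 CPM in WT and 104 and 87.9 CPM in REST-/-. Both REST-/- libraries were above both WT libraries, and the genotypes were farther apart than the replicates. The means were 66.9 ± 4.35 and 95.9 ± 11.2 CPM (SD, n = 2). The log2 fold change was 0.52 (SE 0.16, interval 0.10 to 0.94, adjusted p = 0.656 by edgeR's quasi-likelihood test), and leaving out 1 library at a time gave 0.40 to 0.63.

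The ETS factors Etv4 and Etv5, transcription factors of the PEA3 group whose genes respond to FGF, also had estimates of opposite sign. Etv4 (gene ID 18612, chr11:101631056-101646685, minus strand) was at 158 and 94.9 CPM in WT and 228 and 187 CPM in REST-/-, without overlap. Its log2 fold change was 0.71 (SE 0.29, interval -0.05 to 1.47, adjusted p = 0.792 by edgeR's quasi-likelihood test). It was 0.39 without WT replicate 2, 1.12 without WT replicate 1 and 0.56 without REST-/- replicate 1.

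Etv5 (gene ID 104156, chr16:22381382-22439792, minus strand) was at 326 and 332 CPM in WT and 288 and 292 CPM in REST-/-. Its replicates were the closest of the 10 genes, and both REST-/- libraries were lower than both WT libraries. The difference was small, with a ratio of 0.881 and a log2 fold change of -0.18 (SE 0.11, interval -0.49 to 0.12, adjusted p = 1.0 by edgeR's quasi-likelihood test), which lay between -0.20 and -0.17 with 1 library left out. Etv4 counts were 0.485 and 0.286 of Etv5 counts in WT and 0.79 and 0.639 of them in REST-/-. Dusp6 counts set against those of the ligand, 0.375 and 0.269 of Fgf4 in WT and 1.52 and 0.863 in REST-/-, also had no overlap. These ratios were chosen after the values were seen and are descriptions.

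Levels were compared between genes as CPM per kb of exon. In WT the order was led by Fgf4 (85.95 ± 2.72 CPM per kb) and Etv5 (80.2 ± 1.08), whose libraries did not overlap, and Etv5 was clear of Spry2 (55.8 ± 13.4). Etv4, Spry4, Fgfr1, Dusp4 and Dusp6 followed between 40.8 and 29.9 CPM per kb, with each neighbour overlapping the next from Spry2 down to Dusp6. Spred1 (9.86 ± 0.639) and Fgfr2 (5.50 ± 0.977) were lowest, each apart from the gene above it. The Fgfr2 exon length includes the stretch shared with Ctbp2, so its level per kb is uncertain.

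In REST-/- cells Spry2 (78.9 ± 16.8 CPM per kb), Etv5 (70.7 ± 0.728), Etv4 (66.7 ± 9.35), Dusp6 (54.8 ± 14.8), Fgf4 (43.5 ± 5.44) and Spry4 (41.3 ± 7.76) came in this order. Each of these neighbours overlapped the next, although Fgf4 lay below Spry2, Etv5 and Etv4 in both libraries. Fgf4, the first of the 10 in WT and apart from Etv5, was therefore no longer at the head of the order in REST-/-. Dusp6 overlapped the gene above it in both genotypes and, in REST-/-, the gene below it. Spred1 and Fgfr2 were the ninth and the tenth in both.

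**Figure D4:**
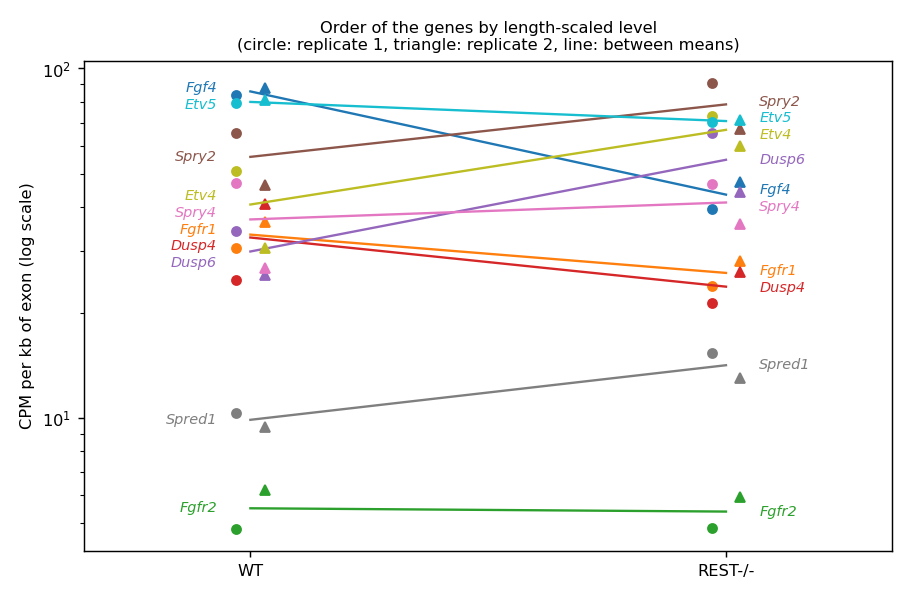
CPM per kb of exon (vertical axis, log scale) of the 10 genes in WT and in REST-/-, with a circle for replicate 1, a triangle for replicate 2 and lines joining the means. Fgf4 goes from 85.95 to 43.5 CPM per kb while Dusp6 goes from 29.9 to 54.8 CPM per kb.

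Of 86 other genes of the pathway, 76 were tested, and edgeR's quasi-likelihood test called 0 of them, with 10 at an unadjusted p under 0.05 (6.71% of all genes were). DESeq2 called 1 (Fgf15), the exact test with tag-wise dispersion called 0 and that with common dispersion called 1, beside 1.54%, 1.51% and 2.22% of all genes. Their estimates were split, with 40 positive and 36 negative and a median log2 fold change of 0.02, and 20 lay above both WT libraries and 14 below both, where 16.5% and 15.4% of all tested genes did. The lowest adjusted p was 0.381, for Dusp2.

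Of the 17 other ligands listed, 9 were tested and 7 of these had positive estimates, with a median of 0.72. An unadjusted p under 0.05 was found for 4 of them, beside 6.71% of all genes, namely Fgf15, Fgf17 and Fgf18 with positive estimates and Fgf1 with a negative one. Fgf17 had the most counts of them, at 25.6 CPM in WT and 42.2 CPM in REST-/-. Fgf15, which signals through FGFR4 in the gut and liver axis, was counted 242 and 263 times in the REST-/- libraries against 115 and 122 times in WT (log2 fold change 1.36, adjusted p = 0.421 by edgeR's quasi-likelihood test). Fgf5, a marker of primed cells, had an estimate of 0.88, and its libraries overlapped. Other positive estimates rested on few counts, namely Fgf7 (13 and 0 in WT, 12 and 0 in REST-/-), Fgf8 (8 and 9, 11 and 24) and Fgf10 (53 and 18, 51 and 14). Fgf5 and Fgf8 are also among the formative and primed markers given below. In the other direction Fgf1 went from 5.61 ± 1.12 to 2.69 ± 0.41 CPM (log2 fold change -1.06), and Fgf3 had an estimate of -0.41.

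The relay between receptors and ERK had a median estimate of -0.03. All 22 adaptor and kinase genes were tested, 0 had an unadjusted p under 0.05, and edgeR's quasi-likelihood test, DESeq2 and both exact tests called 0. Estimates were negative for 14 and positive for 8, and 7 lay below both WT libraries and 2 above both, beside 15.4% and 16.5% of all tested genes. The ERK gene Mapk3, at 119.5 CPM in WT and 107 CPM in REST-/-, had a log2 fold change of -0.16 (SE 0.37). Genes at the ends of this list were the adaptor Shc1 (0.43), the kinase Araf (-0.40) and the scaffold Ksr1 (-0.39). Araf lies on the X chromosome, whose 554 tested genes had a median of -0.40. The part of this shift in the Araf value was not tested. Among the other receptors and heparan sulphate enzymes 13 of 14 were tested, with a median of 0.02, Ext1 at 0.35 and Ndst2 at 0.29, and Fgfrl1 at -0.27 and Sulf2 at -0.21.

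Of the 17 other feedback inhibitors listed, 16 were tested, 7 with positive and 9 with negative estimates, and the median was -0.02. Both REST-/- libraries lay above both WT libraries for 4 and below both for 2, beside 16.5% and 15.4% of all tested genes. An unadjusted p under 0.05, which 6.71% of all genes had, was found for 2, Dusp2 and Spred3, both with positive estimates. Spry1 was at 30.4 CPM in WT and 29.7 CPM in REST-/-, and Dusp9, an ERK phosphatase of high level in ESCs, at 315 and 304 CPM. Spred3 had a positive estimate (0.74, from 12.5 to 20.9 CPM, adjusted p = 0.610), and Dusp2 was low, counted 101 and 79 times in the REST-/- libraries against 38 and 22 times in WT (1.86, adjusted p = 0.381, both by edgeR's quasi-likelihood test). Cbl (-0.41) and Lrig1 (-0.47), which promote the breakdown of receptors, had the lowest estimates of this list.

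Of the 16 other ERK-responsive and ETS factor genes, all tested, 11 had positive estimates and the median was 0.30, beside a median near 0 over all genes. Myc was at 57.4 ± 27.1 CPM in WT and 106.5 ± 37.7 CPM in REST-/- (0.89), and Fosl1 was low (1.13, with overlapping libraries). Ccnd1 (-0.33) and Elk1 (-0.56) had the lowest estimates. Elk1 lies on the X chromosome, whose 554 tested genes had a median of -0.40.

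**Figure D5:**
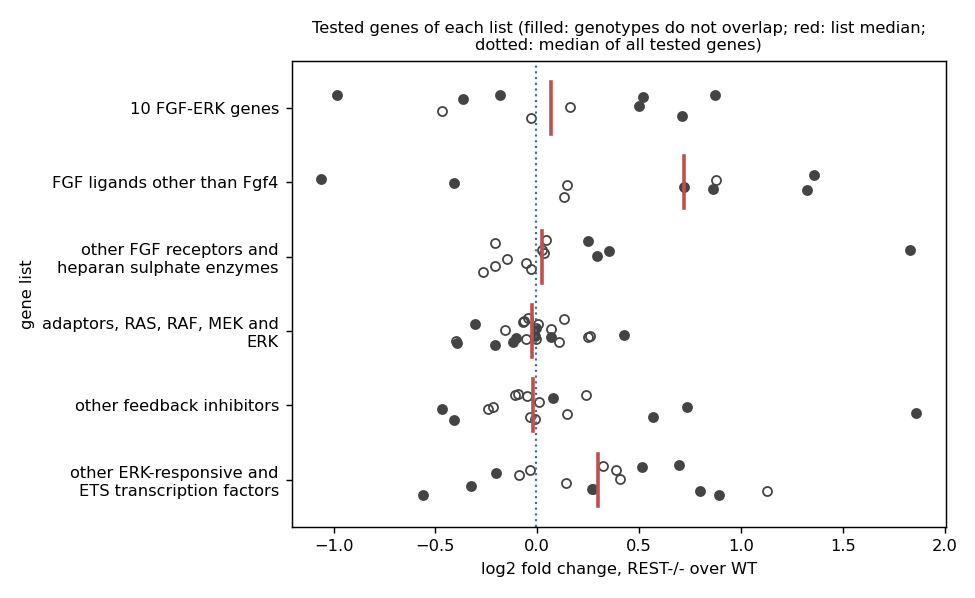
Log2 fold change, REST-/- over WT (horizontal axis), of the tested genes of each pathway list, 1 point a gene, filled where the genotypes do not overlap, with the list median as a red bar, the median of all tested genes as a dotted line and the members in the top row. The adaptor and kinase genes reach from -0.40 (Araf) to 0.43 (Shc1), and the members from -0.98 (Fgf4) to 0.87 (Dusp6).

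The pathway genes whose profile over the 4 libraries was most like that of Dusp6, by the root mean square distance of centred log2(CPM + 0.5) values, were Klb (0.0231), Phlda1 (0.0884) and Fgf18 (0.175). The added 0.5 CPM compresses low genes, and the fitted log2 fold change of Klb was 1.83 against 0.87 for Dusp6. Klb, a co-receptor, was counted 11 and 4 times in the WT libraries against 31 and 14 times in the REST-/- libraries, so that its likeness rests on few counts. Phlda1, an ERK-responsive gene, was at 18.3 and 14.3 CPM in WT and 35.6 and 21.1 CPM in REST-/-, with REST-/- replicate 1 highest as for Dusp6.

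Markers of other cell states also had estimates mostly of one sign. All 9 formative and primed markers had positive estimates, with a median of 0.77, and 2 of them had an unadjusted p under 0.05, beside 6.71% of all genes. Their sums were 410 and 624 CPM in WT against 607 and 722 CPM in REST-/-. Most of each sum was Dnmt3b, at 442 CPM in WT and 548 CPM in REST-/- with overlapping libraries. In this list REST-/- replicate 1, the library with the high fibroblast markers, exceeded replicate 2 by a median of 0.76 on the log2 scale. T was at 14.9 and 5.33 CPM in the REST-/- libraries and Lef1 at 15.4 and 5.78 CPM, while Otx2 was at 13.0 and 4.51 CPM, the second of these below both WT libraries. All 13 primitive endoderm markers, the lineage that FGF signals promote, had positive estimates, with a median of 0.73. Their sums were 584 and 761 CPM in WT against 994 and 1036 CPM in REST-/-. An unadjusted p under 0.05 was found for 4, beside 6.71% of all genes, and 10 lay above both WT libraries, beside 16.5%. Genes of the extracellular matrix made up most of the sums, led by Sparc (283 CPM in WT and 343 CPM in REST-/-) and Lamb1 (166 and 260 CPM). The factor genes Sox17 (0.43 and 0.65 CPM), Sox7 (3.75 and 4.72 CPM) and Foxa2 (0.61 and 0.65 CPM) overlapped between genotypes. No gene of either list was at 0 in any library. None of these markers was called by edgeR's quasi-likelihood test, and DESeq2, which called 1.54% of all genes, called T, Pdgfra and Cubn. Their part in the values of Fgf4, Dusp6, Spred1 and Etv4 was not tested.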

How the data were processed

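RNA-seq libraries of 2 WT and 2 REST-/- ESC cultures were analysed, grouped by the genotype in the labels. The authors deposited a table of raw counts per gene with Entrez identifiers and symbols. The submitters' processing notes name Subread, featureCounts and mm9; versions, annotation and strand setting are not given in the sources used here. From these counts, 368 rows with no identifier were left out, and 15444 genes passed edgeR's expression filter.

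Counts were scaled by TMM and tested in R 4.3.3 with edgeR 4.0.16 (quasi-likelihood test, genotype only, Benjamini-Hochberg over all genes, adjusted p under 0.05). CPM used TMM-scaled library sizes. Alternatives were other scalings and filters, exact tests, DESeq2 1.42.0, a replicate block and leaving out each library. Scripts were tested on simulated data. With 2 replicates a genotype, p-values measure only the spread between these cultures.

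The 10 members and the gene lists were chosen with earlier results of these data known. All members are named, as are the 2 genes with the highest and the 2 with the lowest log2 fold change of each pathway list (a minimum of 1 CPM on average in whichever genotype was higher) and the 3 list genes nearest to Dusp6 in profile; others were chosen after their values were seen, and a gene that this rule names is not reported here. Positions and exon lengths came from GENCODE M1 on mm9, and promoter windows from RefSeq.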

Additional observations from a re-analysis of the deposited data

How the results depend on the processing

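The counts of all genes called higher and lower, 8 and 1 by edgeR's quasi-likelihood test, were 49 and 4 with no filter on low counts, 3 and 0 with at least 10 counts in every library, 179 and 54 by the exact test with tag-wise dispersion, 246 and 97 by that with common dispersion and 180 and 58 by DESeq2. Leaving out 1 library at a time gave 54 to 88 higher and 6 to 25 lower, and 0 members called each time. Members called were 1 (Fgf4) by the tag-wise exact test and by DESeq2. In each of these 5 of the 10 members had positive estimates, not always the same ones. The cause was not tested. Of 140 member estimates under an alternative, 126 kept their sign and their side of the threshold, 10 passed it, and 4 changed sign, namely Fgfr2 (0.16 without WT replicate 2 and 0.12 without REST-/- replicate 1) and Spry4 (-0.19 and -0.04, in the same order). Over the left-out libraries the range was -0.21 to 0.16 for Fgfr2 and -0.19 to 0.62 for Spry4.

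With the replicate number as a block, 1308 genes were called higher and 1313 lower (17% of those tested), and 8 members were called, all but Fgfr2 and Spry4, with an adjusted p of 5.5e-05 for Fgf4 and 0.00011 for Dusp6. The labels give no shared batch behind the numbers. Differences between replicates 1 and 2 correlated between genotypes across genes (r = 0.807, genes not being independent replicates), and had the same sign in both genotypes for 10 of 10 members and 82.5% of tested genes. With only 2 pairs, the numbers were not taken to pair the libraries. Counting error of the members was at most 3.21%, small beside a common biological coefficient of variation of 27.5%.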
